A study of Homo sapiens with 9 samples.

Results

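The transcription starts of 10 genes that mark lung epithelial cells were examined for CUT&Tag peaks in A549, a human lung adenocarcinoma cell line. The genes were given as a list with their hg19 starts, and a peak was counted at a promoter when its nearest edge lay within 2 kb of the start. There were 11 such peaks among the 27108 in the 3 deposited lists, and they fell on 7 of the 10 promoters. CUT&Tag tethers a transposase to an antibody's target in permeabilised cells, so that the sequenced fragments come from the target's sites. The series holds 9 libraries in 3 groups of 3 replicates, all of A549 cells. In the HA-BAZ2B group, anti-HA CUT&Tag was done on cells with an HA tag inserted at the 5' end of the endogenous BAZ2B gene. In the WT group, untagged A549 cells, which hold no HA epitope, were profiled with the same antibody, so their peaks are the background of the assay. In the H3K4me3 group, the tagged cells were profiled for H3K4me3, a histone mark of active promoters. All groups received 35 ng of spike-in chromatin from Drosophila. An siRNA transfection appears in the protocols without being tied to any library, and the labels do not say whether the tagged line is 1 clone.

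NKX2-1 is the transcription factor that specifies lung and thyroid from the foregut, and SFTPB and SFTPC encode surfactant proteins B and C of alveolar type II cells. FOXA1 and FOXA2 are pioneer factors of foregut endoderm that bind and open closed chromatin, and they act with NKX2-1 at surfactant genes. KRT8 and KRT18 pair into the intermediate filaments of simple epithelia, EPCAM and CDH1 (E-cadherin) hold epithelial cells together, and MUC1 is a membrane mucin. BAZ2B is a bromodomain protein that works with the ISWI ATPases, which slide nucleosomes. The series title links BAZ2-dependent remodeling to G-quadruplexes, 4-stranded DNA folds that form in G-rich strands.

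The sequences before 3 of the starts are shown because they stand for 3 different outcomes below and because each holds a run of G that fits the common quadruplex pattern. They are the 250 bases before the RefSeq start, on the gene's strand in the build GRCh38.p14, with the pattern in capitals. Within 2 kb of the start, FOXA1 (chr14:37595250-37595499, minus strand) had an HA-BAZ2B and an H3K4me3 peak, MUC1 (chr1:155192916-155193165, minus strand) a WT and an H3K4me3 peak, and NKX2-1 (chr14:36520233-36520482, minus strand) none. The MUC1 peaks lay 499 bp (H3K4me3) and 650 bp (WT) upstream of its start. If the MUC1 start is the same in both builds, the 250 bases shown and their pattern lie outside both peaks.
FOXA1: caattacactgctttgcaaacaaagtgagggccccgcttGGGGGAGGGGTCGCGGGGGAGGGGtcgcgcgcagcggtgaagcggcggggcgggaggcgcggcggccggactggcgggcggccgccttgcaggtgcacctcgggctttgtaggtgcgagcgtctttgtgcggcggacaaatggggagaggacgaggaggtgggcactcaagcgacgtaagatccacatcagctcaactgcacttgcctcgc
MUC1: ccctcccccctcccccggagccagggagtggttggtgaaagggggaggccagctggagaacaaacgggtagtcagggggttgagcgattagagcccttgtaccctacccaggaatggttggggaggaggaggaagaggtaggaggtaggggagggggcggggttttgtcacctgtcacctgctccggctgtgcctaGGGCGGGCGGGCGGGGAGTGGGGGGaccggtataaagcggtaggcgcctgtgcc
NKX2-1: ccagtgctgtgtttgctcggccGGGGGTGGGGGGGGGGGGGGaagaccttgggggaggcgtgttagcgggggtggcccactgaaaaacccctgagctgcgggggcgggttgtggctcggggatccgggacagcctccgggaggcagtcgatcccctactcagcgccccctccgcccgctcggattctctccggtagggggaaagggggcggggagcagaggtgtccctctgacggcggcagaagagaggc
The pattern was 4 runs of at least 3 G (GGG), with 1 to 7 bases of any kind between runs, searched on both strands. It was found in 23.5% of the 35116 promoter windows of the same length in the RefSeq table, on the gene's own strand in 13.3%. The FOXA1 window is 67.2% G or C, the MUC1 window 66% and the NKX2-1 window 70.8%. A second RefSeq start of NKX2-1, farther into the gene, also has the pattern, in a window of 49.6% G or C. Neither window of SFTPB has it. A match describes the letters only and does not show a folded quadruplex. In all, 5 of the 10 genes have an entry in the table. The KRT8 entry belongs to another start of that gene, as its spacing from KRT18 shows, and was not used. FOXA2, SFTPC, KRT18, EPCAM and CDH1 had no entry. The peaks are in hg19 and these windows in GRCh38, and the starts were not tied to each other base by base.

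Of the 10 promoters, 2 carried an HA-BAZ2B peak, 2 a WT peak and 7 an H3K4me3 peak. The HA-BAZ2B peaks were at FOXA1 and FOXA2. The third transcription factor gene, NKX2-1, had none. The WT peaks were at FOXA2 and MUC1. KRT8, KRT18, EPCAM and CDH1 had H3K4me3 and no anti-HA peak. The lung lineage genes NKX2-1, SFTPB and SFTPC had no peak in any list within 2 kb. Among all 17018 H3K4me3 peaks on the assembled chromosomes, 39.5% (exact 95% binomial interval 38.8 to 40.3%) carried HA-BAZ2B. The share that carried WT was 13.1% (12.6 to 13.6%). The 2 of 7 promoter H3K4me3 peaks with an HA-BAZ2B peak, and the 2 of 7 with a WT peak, are to be read against these shares, and over 7 peaks neither count is a result about the promoters. FOXA1 alone had HA-BAZ2B without WT, as did 28.2% of all H3K4me3 peaks, and FOXA2 alone had both, as did 11.3%. The 4 of 7 with neither stand beside 58.7% in the list. Of the HA-BAZ2B peaks, 71.3% of 6794 overlapped no WT peak, as the FOXA1 peak did not. The promoter HA-BAZ2B peaks and the promoter WT peaks all overlapped H3K4me3 peaks, as 99% of HA-BAZ2B and 93.4% of WT peaks did. Each group has 1 list and no value per replicate, so no test between groups was possible, no value has a replicate error, and library depth is unknown.

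**Figure D1:**
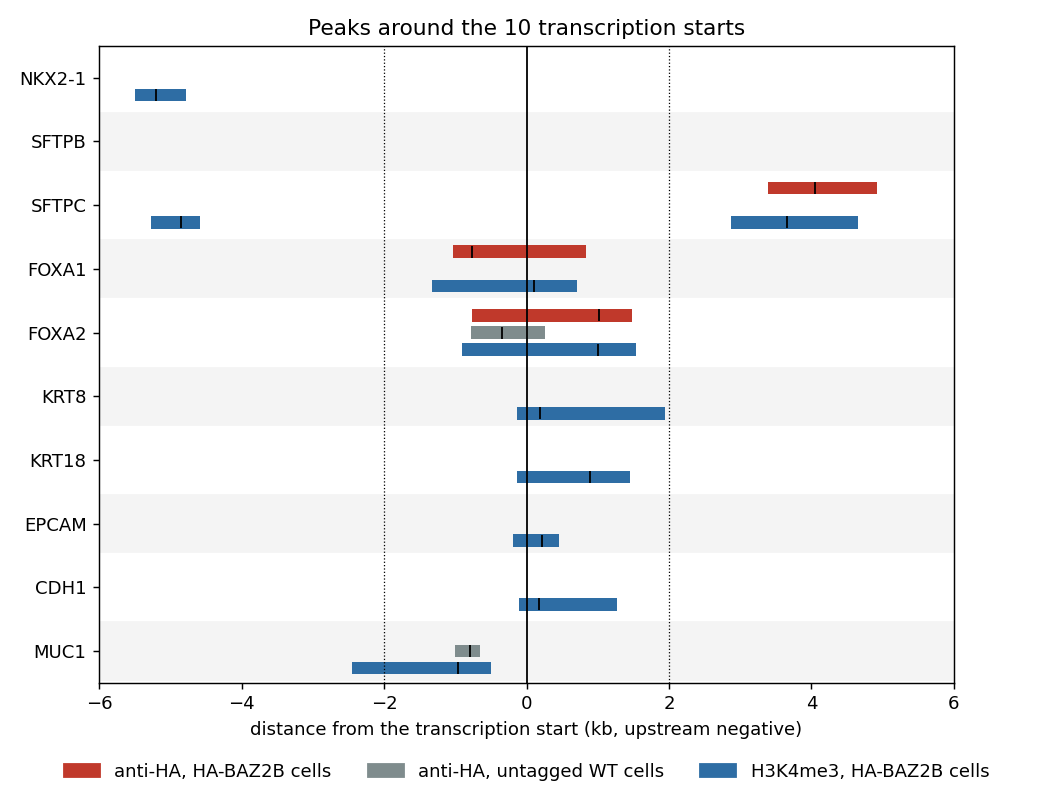
Peaks around the 10 starts, drawn to scale along the gene's own direction (x axis, kb, upstream negative). Bars are peaks, black ticks their summits, dotted lines the 2 kb limits, and HA-BAZ2B bars appear inside the limits at FOXA1 and FOXA2 alone.

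The FOXA1 promoter carried a broad, shallow HA-BAZ2B peak and no WT peak. The HA-BAZ2B peak ran over 1877 bp (chromosome 14, 38063484 to 38065360), from 1035 bp upstream to 841 bp downstream of the start. Its fold enrichment, the authors' ratio of signal to the background that their peak caller estimated, was 4.23, and its −log10 q was 13.8. These values put it at percentile 89.4 of the HA-BAZ2B list by width but at 3.86 by fold enrichment and at 18.2 by −log10 q. By fold enrichment it was thus close to the bottom of its list, and by width close to the top. The H3K4me3 peak below it was 2045 bp wide (38063612 to 38065656), with a fold enrichment of 4.07 and a −log10 q of 28.1. It had the same shape within its own list, at percentile 95.4 by width and 3.45 by fold enrichment. The 2 peaks shared 1749 bp, 93.2% of the HA-BAZ2B and 85.5% of the H3K4me3 peak. Their summits did not coincide: the HA-BAZ2B summit was 769 bp upstream of the start and the H3K4me3 summit 98 bp downstream, 867 bp apart. Over 6556 places where 1 HA-BAZ2B peak met 1 H3K4me3 peak, the median summit distance was 84 bp (interquartile range 27 to 275 bp), and 867 bp was at percentile 97.4. Among the pairs in the widest 10% of H3K4me3 peaks, where the median was 321 bp, it was at percentile 86.5. The nearest WT peak to the FOXA1 start was 1768 kb away.

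At FOXA2, all 3 lists had a peak over the start. The HA-BAZ2B peak was 2251 bp wide (chromosome 20, 22563619 to 22565869). Its fold enrichment was 6.29 and its −log10 q was 31.4. The WT peak was 1039 bp wide (22564838 to 22565876), with a fold enrichment of 5.52 and a −log10 q of 9.55. The H3K4me3 peak was 2444 bp wide (22563559 to 22566002), with a fold enrichment of 4.30 and a −log10 q of 28.5. All 3 were wide for their lists, at percentile 96.6 in HA-BAZ2B, 90.2 in WT and 98.6 in H3K4me3, and all were below the middle of their list by fold enrichment, at 21.8, 28.7 and 4.25. No scaling links the lists, and the values do not rank the groups.

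The tagged and untagged signals at FOXA2 peaked at different ends of the same domain. The HA-BAZ2B summit lay 1022 bp downstream of the start, inside the gene, and the H3K4me3 summit lay 15 bp from it, at 1007 bp. The WT summit lay 340 bp upstream of the start, 1362 bp from the HA-BAZ2B and 1347 bp from the H3K4me3 summit. Over 1902 places where 1 HA-BAZ2B peak met 1 WT peak, the median summit distance was 175 bp (interquartile range 53 to 460 bp), and the FOXA2 distance was at percentile 99.2. For WT paired with H3K4me3 (2210 places), the median was 78 bp and the FOXA2 distance was at percentile 99.6. Among those with the widest H3K4me3 peaks, by the limit used for FOXA1, the median was 203 bp. There the FOXA2 distance was at percentile 98.1. The rank of 99.2 for HA-BAZ2B with WT covers pairs of all widths. Whether the width of the FOXA2 peaks accounts for that rank was not tested. The WT peak covered 45.8% of the HA-BAZ2B peak, and 99.3% of the WT peak lay within it. The background signal listed at FOXA2 thus had its summit away from that of the tagged cells. Each summit is the position in 1 library, so its spread over replicates is not known.

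At the given starts, both keratin promoters had H3K4me3 peaks near the middle of the list by −log10 q and no anti-HA peak. At KRT8, the H3K4me3 peak was 2075 bp wide (chromosome 12, 53296923 to 53298997) and lay almost wholly inside the gene, from 129 bp upstream to 1945 bp downstream of the start. Its fold enrichment was 5.45 and its −log10 q, at 44.9, was the highest of the 7 promoters. At KRT18, which lies 43.8 kb away, it was 1586 bp wide (53342518 to 53344103), from 137 bp upstream to 1448 bp downstream, with a fold enrichment of 5.96 and a −log10 q of 41.8. The nearest HA-BAZ2B peaks were 30.7 kb from the KRT8 and 56.8 kb from the KRT18 start. The nearest WT peak to both was 1 peak between the given starts (53320695 to 53321415, fold enrichment 5.39), 21.8 kb from that of KRT8 and 21.2 kb from that of KRT18. RefSeq has another KRT8 start 22.4 kb from KRT18, by the spacing in GRCh38. That spacing would put the WT peak within 2 kb of this other KRT8 start, which is not among the given starts. The builds were not tied to each other base by base. A narrow H3K4me3 peak of 631 bp (53320783 to 53321413, fold enrichment 5.15) lay within that WT peak, and no HA-BAZ2B peak was listed there. Among H3K4me3 peaks comparable to that of KRT8, most carried HA-BAZ2B. With the H3K4me3 list divided into 10 groups of nearly equal size by −log10 q and likewise by width, 70% of the 310 peaks that share both groups with KRT8 carried an HA-BAZ2B peak. For KRT18 the share was 37.6% of 205.

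The surface and adhesion genes had H3K4me3 peaks of 3 different shapes. EPCAM had the narrowest and steepest, 651 bp wide (chromosome 2, 47596091 to 47596741); its fold enrichment was 12.3 and its −log10 q 25.6. It was the only one of the 7 below the middle of the list by width (percentile 15.3) and above it by fold enrichment (85.6). CDH1 had a peak of 1376 bp (chromosome 16, 68771093 to 68772468), whose fold enrichment was 8.30 and −log10 q 27.8, reaching 102 bp upstream and 1273 bp downstream of the start. Its summit, 171 bp downstream, was closer to the start than any but that of FOXA1 among the H3K4me3 peaks. No HA-BAZ2B peak lay within 23.7 kb of EPCAM or 106 kb of CDH1, and the nearest WT peaks were 23.7 kb and 895 kb away. Of the H3K4me3 peaks in the same groups by −log10 q and width, 13.5% of 347 for EPCAM and 26.3% of 114 for CDH1 carried an HA-BAZ2B peak.

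MUC1 alone had a WT peak and no HA-BAZ2B peak. The WT peak was small, 354 bp (chromosome 1, 155163356 to 155163709); it had a fold enrichment of 4.19 and a −log10 q of 8.75, at percentiles 9.17 and 5.84 of its list by width and fold enrichment. It lay within an H3K4me3 peak of 1947 bp (155163205 to 155165151), with a fold enrichment of 6.15 and a −log10 q of 32.2. The summits were 795 bp (WT) and 956 bp (H3K4me3) upstream of the start, 161 bp apart. A WT peak without an HA-BAZ2B peak was found at 1.79% (1.60 to 2.00%) of all H3K4me3 peaks, and at 2.35% of the 255 in the same groups as MUC1. MUC1 was also the 1 promoter of the 7 whose start lay outside its peak: the H3K4me3 peak ended 499 bp and the WT peak 650 bp short of it, both on the upstream side. RefSeq lists THBS3-AS1, MIR92B and THBS3 as the next genes on that side of MUC1, and without an hg19 annotation the peak was not assigned to any of them.

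Taking the 7 H3K4me3 peaks as a set, 6 were wider than the list's median of 1132 bp, with a median of 1947 bp (651 to 2444 bp). Likewise 6 had a fold enrichment under the list's median of 9.07, with a median of 5.96 (4.07 to 12.3), and 6 a −log10 q under the median of 42.04, with a median of 28.5 (25.6 to 44.9). EPCAM was the exception by width and by fold enrichment, and KRT8 by −log10 q. Low fold enrichment was common among wide peaks of the whole list. Of the 1702 peaks in the widest of 10 groups, 454 were in the lowest group by fold enrichment and 615 in the second lowest. Width and low fold enrichment are thus not separate observations about these promoters. Of the 7, 6 contained the start, and in FOXA2, KRT8, KRT18, EPCAM and CDH1 more of the peak lay downstream than upstream of it. FOXA1 differed, with 1331 bp upstream and 713 bp downstream.

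**Figure D2:**
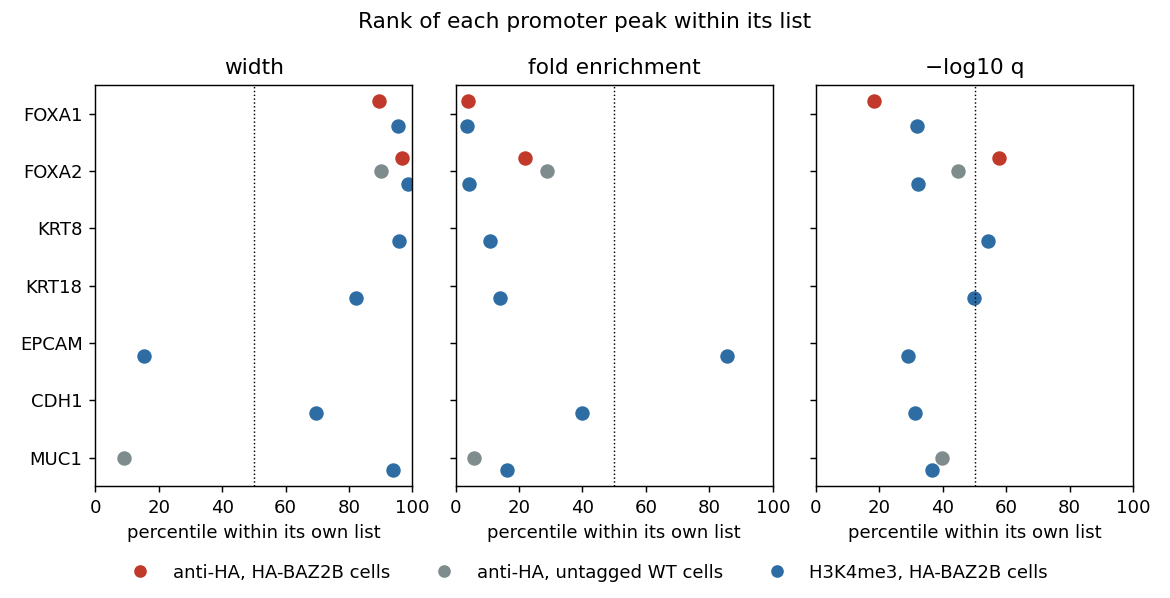
Percentile of each of the 11 promoter peaks within its own list (x axes, 0 to 100) by width, fold enrichment and −log10 q, 1 row per gene. The H3K4me3 points of FOXA1, FOXA2, KRT8, KRT18 and MUC1 lie at the right by width and at the left by fold enrichment, and EPCAM lies the other way round.

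The promoters with and without an HA-BAZ2B peak overlapped in the −log10 q and the width of H3K4me3. FOXA1 and FOXA2, with −log10 q of 28.1 and 28.5, stood in the fourth of 10 groups by −log10 q, where 25.3% of H3K4me3 peaks carried an HA-BAZ2B peak. CDH1 and MUC1 were in the same group and had none, and KRT18 and KRT8, in the fifth and the sixth (35.8 and 42.7%), had none either. By width, FOXA1, FOXA2, KRT8 and MUC1 were all in the widest group, where 65.7% of peaks carried an HA-BAZ2B peak, and 2 of these 4 promoters did. By fold enrichment they did not overlap: FOXA1 and FOXA2 had the lowest values of the 7, 4.07 and 4.30, and the 5 promoters without an HA-BAZ2B peak had 5.45 to 12.3. The FOXA genes were in the lowest of 10 groups by fold enrichment, where 28.3% of H3K4me3 peaks carried an HA-BAZ2B peak. That was the smallest share of the 10 groups, with 35.7 to 44.1% in the others. Over the list, the lowest fold enrichment thus went with fewer HA-BAZ2B peaks. The separation of 2 promoters from 5 is not a result about the promoters. In the groups by −log10 q and width together, the share was 47.5% of 255 peaks for FOXA1, FOXA2 and MUC1 alike. By width and fold enrichment together, it was 57.9% of 454 for the FOXA genes, 65.7% of 615 for KRT8 and MUC1, 42.5% of 134 for KRT18, 37.7% of 114 for CDH1 and 19.6% of 158 for EPCAM.

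**Figure D3:**
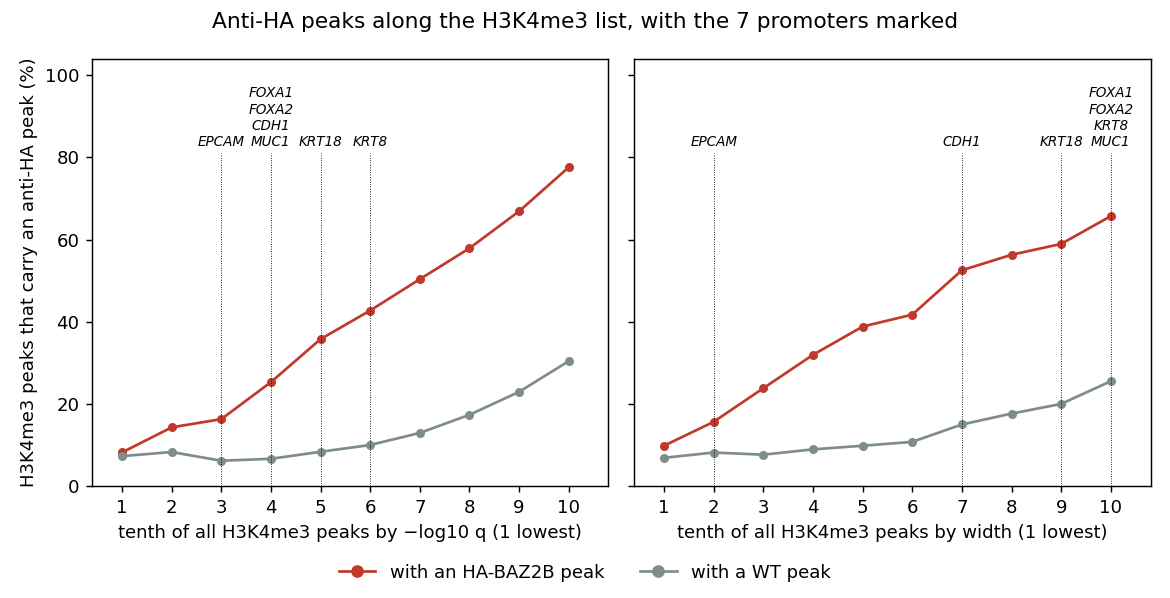
Share of H3K4me3 peaks that carry an HA-BAZ2B or a WT peak (y axis, %), with all 17018 H3K4me3 peaks in 10 groups by −log10 q (left) or width (right), lowest to highest. Dotted lines mark the groups of the 7 promoters: FOXA1 and FOXA2 share theirs with CDH1 and MUC1 by −log10 q and with KRT8 and MUC1 by width.

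The promoters of NKX2-1, SFTPB and SFTPC had no listed H3K4me3, and the distance to the nearest peak differed between them. NKX2-1 had an H3K4me3 peak of 714 bp (chromosome 14, 36994208 to 36994921, fold enrichment 8.48, −log10 q 17.8) 4.78 kb upstream of its start, on the side where RefSeq lists the antisense gene NKX2-1-AS1 and LOC105370453 as neighbours. The nearest HA-BAZ2B peak was 142 kb and the nearest WT peak 693 kb away. SFTPB had its nearest HA-BAZ2B peak at 64.5 kb, its nearest WT peak at 73.5 kb and its nearest H3K4me3 peak at 51.3 kb, the longest distance to H3K4me3 of the 10 starts. SFTPC lay between a pair of H3K4me3 peaks, of 1784 bp at 2.87 kb downstream (chromosome 8, 22022052 to 22023835, fold enrichment 6.74) and of 692 bp at 4.58 kb upstream (22013912 to 22014603, fold enrichment 8.33). The downstream one carried an HA-BAZ2B peak of 1536 bp (22022576 to 22024111, fold enrichment 7.71, −log10 q 29.01) and no WT peak. The next gene on that side in RefSeq is BMP1, and the next on the other is LGI3. The values nearest the 2 kb limit were thus 650 bp on the inside, for the WT peak at MUC1, and 2.87 kb on the outside, at SFTPC.

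The peak numbers in the lists show how far an absence reaches. The authors' rows keep the number that each peak had in its source library, numbers rise with position on all 24 chromosomes of each list, and a skipped number is a peak of that library that is not in the list. Around SFTPB, the H3K4me3 peaks on either side are numbered 11517 and 11518, so the source library had no H3K4me3 peak in the 125 kb between them. Around SFTPC, the H3K4me3 numbers 19529 and 19530 likewise leave no peak in 7.45 kb. Around NKX2-1, 2 numbers were skipped over 204 kb, so an unlisted H3K4me3 peak at the start cannot be told apart from one elsewhere in that stretch. For HA-BAZ2B, 2 numbers were skipped over the 131 kb that holds both keratin starts, 2 over 437 kb around EPCAM, 3 over 394 kb around CDH1 and 4 over 69.5 kb around MUC1. An unlisted HA-BAZ2B peak of the source library could therefore lie at any of these 5 promoters, though the whole keratin stretch held no more than 2. For WT at FOXA1, 7 numbers were skipped over 3605 kb. At FOXA2, the HA-BAZ2B numbers 9285, 9286 and 9287 and the WT numbers 5715, 5716 and 5717 follow without a gap.

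The promoters lay in surroundings of unequal density. FOXA2 had no other peak of any list within 100 kb, and its nearest other HA-BAZ2B peak was 172 kb away. FOXA1 had 1 other H3K4me3 peak in that range and no other anti-HA peak, and CDH1 had none beside its own H3K4me3 peak. MUC1 had 5 HA-BAZ2B, 1 WT and 13 H3K4me3 peaks within 100 kb. Of those 13 H3K4me3 peaks, 5 carried an HA-BAZ2B peak, beside 39.5% of all H3K4me3 peaks, and the peak at the MUC1 promoter did not. SFTPC had 3 HA-BAZ2B, 0 WT and 8 H3K4me3 peaks within 100 kb, and SFTPB 3, 1 and 7. Within 500 kb, HA-BAZ2B peaks ran from 1 at NKX2-1 to 18 at MUC1, WT peaks from 0 at NKX2-1, FOXA1 and CDH1 to 5 at MUC1, and H3K4me3 peaks from 4 at FOXA1 to 31 at MUC1. Within 500 kb, FOXA1 had 3 HA-BAZ2B, 0 WT and 4 H3K4me3 peaks, and FOXA2 had 3, 3 and 6. Of the 7 promoters with H3K4me3, these had the fewest HA-BAZ2B and H3K4me3 peaks in that range, but not the fewest WT peaks at FOXA2, and within 100 kb CDH1 had fewer than FOXA1 (0 HA-BAZ2B, 0 WT and 1 H3K4me3 against 1, 0 and 2). KRT8 and KRT18 share most of their surroundings, so their counts are not separate observations.

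**Figure D4:**
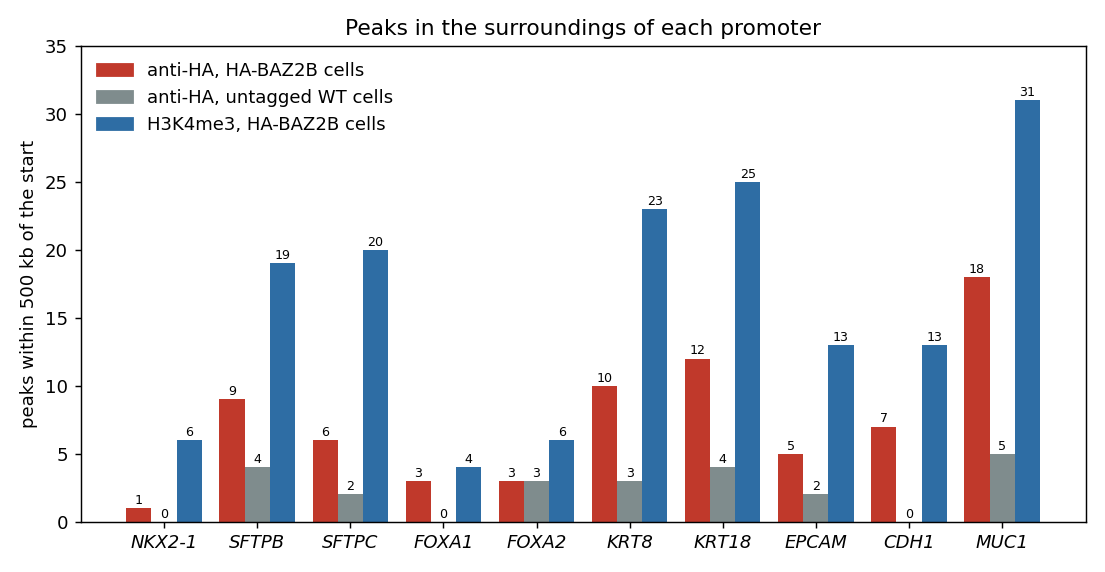
Number of peaks within 500 kb of each start (y axis), with bars for HA-BAZ2B, WT and H3K4me3 from left to right at each gene. NKX2-1, FOXA1 and FOXA2 have 4 to 6 H3K4me3 peaks and MUC1 has 31.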

How the data were processed

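CUT&Tag was done on 9 A549 libraries, and 1 peak list per group was deposited. Alignment with Bowtie2 2.4.5 and peak calling with MACS2 2.1.4 on hg19, with SAMtools 1.15.1, Picard and bedtools, are named in the submitters' processing notes; the sources used here give no settings, control or use of the spike-in. A peak had to be found in at least 2 replicates, per the labels, with rows from the largest replicate file: replicate 3 for HA-BAZ2B, 2 for WT and 1 for H3K4me3, by the peak names. The antibody field of H3K4me3 replicates 2 and 3 differs from that of replicate 1, and titles were followed. Fold enrichment is a ratio deposited by the authors, and −log10 q is the authors' deposited significance. Positions were made 1-based. The assembled chromosomes (1 to 22, X and Y) were used (6794 HA-BAZ2B, 2389 WT and 17018 H3K4me3); an overlap needed 1 bp. Percentiles are mid-ranks within a list. Intervals cover counting error over peaks only, and peaks are not replicates. All 10 genes are named. The genes and comparisons were chosen with earlier results of these data known. Window and overlap steps were tested on simulated data. Gene neighbours came from RefSeq on GRCh38.p14, for names only. Python 3.11.15, numpy 2.4.6, pandas 2.3.3, scipy 1.17.1 and matplotlib 3.10.9 were used.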

Additional observations from a re-analysis of the deposited data

How the results depend on the processing

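The counts of promoters with an HA-BAZ2B, a WT or an H3K4me3 peak (2, 2 and 7) were the same with a window of 1 kb, with the summit required within 2 kb and with a −log10 q of at least 5. A window of 5 kb gave 3, 2 and 9, adding SFTPC and NKX2-1, and the promoters with an HA-BAZ2B and no WT peak then numbered 2 in place of 1. With every list limited to the 2389 peaks of highest −log10 q, the length of the WT list, the counts were 0 for HA-BAZ2B, 2 for WT and 0 for H3K4me3, 0 promoters had an HA-BAZ2B and no WT peak, and 0 promoter H3K4me3 peaks overlapped an HA-BAZ2B or a WT peak. Those 2 promoters keep their WT peaks by construction, since the WT list is left whole, and every HA-BAZ2B and H3K4me3 promoter peak is outside the top 2389. An overlap of at least 50% of the anti-HA peak changed no promoter count, and it gave shares of all H3K4me3 peaks of 38.99% with HA-BAZ2B and 12.97% with WT. Leaving out replicates was not possible, since the lists hold no value per replicate. No paired analysis was possible because each group has 1 list and no result comes from a test. Depth is unknown, so a missing peak means that none was listed.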
